A study of Rattus norvegicus with 18 samples.

Results

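Igf1, Igf2 and Igf1r, the genes of both insulin-like growth factors and of their signalling receptor, were examined in the hearts of young male rats. They are 3 of the 30560 genes in the deposited table and were taken by identifier (ENSRNOG00000004517 for Igf1, ENSRNOG00000020369 for Igf2 and ENSRNOG00000014187 for Igf1r). No measured value entered that rule, but the genes were chosen with earlier results of these data known. The hearts came from male Wistar rats 3 weeks of age whose gestational exposure, per the labels, was vehicle (7 hearts), cannabidiol (CBD, a non-intoxicating cannabinoid) at 3 mg/kg/day (CBD3, 6 hearts) or CBD at 30 mg/kg/day (CBD30, 5 hearts). All groups share strain, sex, age and tissue. The labels give no genotype or litter. P-values therefore treat each offspring as independent, which understates the error where littermates are alike. At an adjusted p under 0.05 none of the 3 genes differed between any pair of groups, and the size of difference that each comparison still allows is given below.

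Insulin-like growth factors are secreted peptides that act on nearby cells and through the blood. IGF1 is made largely under the control of growth hormone and carries much of postnatal growth, while IGF2 is best known as a growth factor of the fetus. Both bind the receptor tyrosine kinase encoded by Igf1r, which signals to growth and survival pathways and is known for promoting growth of heart muscle cells. In rodents Igf2 is an imprinted gene, expressed mainly from the paternal allele, and its expression in most tissues declines after birth.

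The identifiers were paired with symbols as listed for this work. The RefSeq table at hand (assembly GRCr8, 47357 genes) holds an Ensembl identifier for 0 of its genes, so the pairing was not checked against it. In that annotation Igf1 overlaps no other gene. Igf2 overlaps the microRNA gene Mir483 and LOC102548568, a protein-coding gene, and Igf1r overlaps Pgpep1l and the long non-coding LOC134483685. These are overlaps of whole gene spans on either strand, and shared exons were not checked. Whether reads were counted by strand is not given either. It is therefore not known whether the counts of Igf2 and Igf1r hold reads from these overlapping genes.

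The counts are per gene and pool all transcripts, of which the RefSeq annotation lists 9 for Igf1 and 5 each for Igf2 and Igf1r. Igf2 has 2 start windows in the RefSeq table (GRCr8, 250 bases before to 50 bases after the start). They lie on the minus strand of chromosome 1, with starts 3505 bases apart. They are shown because a count of Igf2 cannot say which start was used. Capitals mark CpG dinucleotides, the sites at which vertebrate DNA is methylated.
Igf2, chr1:207253931-207254230: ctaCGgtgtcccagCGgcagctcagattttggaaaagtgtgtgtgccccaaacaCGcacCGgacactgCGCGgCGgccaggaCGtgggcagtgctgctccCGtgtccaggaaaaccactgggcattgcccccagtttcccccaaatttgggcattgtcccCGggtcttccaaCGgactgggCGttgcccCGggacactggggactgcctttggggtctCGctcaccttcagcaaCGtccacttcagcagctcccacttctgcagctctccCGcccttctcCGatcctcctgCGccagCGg
Igf2, chr1:207250426-207250725: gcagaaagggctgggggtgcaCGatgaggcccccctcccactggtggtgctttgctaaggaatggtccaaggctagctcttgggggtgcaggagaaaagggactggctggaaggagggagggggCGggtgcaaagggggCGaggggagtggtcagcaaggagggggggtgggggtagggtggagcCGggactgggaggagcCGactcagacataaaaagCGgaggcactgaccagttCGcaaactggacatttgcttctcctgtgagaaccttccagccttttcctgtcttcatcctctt
The first window holds 19 CpG and the second 7, against a median of 7 over 33469 windows of 300 bases. The Igf1r window holds 50 CpG, more than 99.3% of those windows, with a GC content of 78.0%. The Igf1 window holds 7 CpG, with a GC content of 48.3% against a median of 51.7%. Methylation was not measured here.

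Library totals ranged from 44127009 to 89240727 counts over the 18 libraries. Each column of the table carries a code of 2 numbers whose meaning the labels do not give. Digit 1 ends the codes of 9 libraries and digit 2 those of the other 9. The digits differ in depth, with totals of 63672078 to 89240727 counts in digit 1 and 44127009 to 67302419 in digit 2. For 4 vehicle libraries the replicate number is ambiguous in the labels, and they are named by their code (1.1, 2.1, 3.1 and 4.1). The first principal component of all tested genes held 29.8% of the variance, and 3 libraries lay farthest out on it: vehicle 2.1 at -65.0, vehicle 1.1 at -57.9 and CBD30 replicate 2 at 65.5. Group differences and correlations that these 3 libraries moved most are also given without them. Cardiac cell markers could not be checked, because their identifiers were not paired with symbols.

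Igf1, which encodes the growth hormone-responsive ligand, was detected in every heart with 887 to 2164 counts. Its level is given in CPM, the count scaled to a common library size with TMM factors. In vehicle hearts Igf1 had a lowest value of 15.1, a median of 22.8 and a highest value of 30.1 CPM. In CBD3 hearts the lowest, median and highest values were 19.4, 21.0 and 26.5 CPM. CBD30 replicates 1 to 5 had 24.3, 36.3, 24.4, 31.2 and 23.3 CPM. The CBD30 hearts sat in the upper part of the vehicle range or, in replicates 2 and 4, above it, and the ranges of all 3 groups overlapped. The 7 vehicle hearts averaged 22.6 ± 5.63 CPM (SD), the 6 CBD3 hearts 21.7 ± 2.53 CPM and the 5 CBD30 hearts 27.9 ± 5.66 CPM. The higher mean in CBD30 did not pass the adjusted test against either group.

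Igf2, the ligand best known from fetal growth, had 3817 to 16167 counts per heart. In vehicle hearts its lowest, median and highest levels were 71.2, 131 and 198 CPM. In CBD3 hearts they were 116, 149 and 173 CPM. CBD30 replicates 1 to 5 had 189, 125, 159.5, 124 and 108 CPM. The widest spread was among the vehicle hearts, where vehicle 2.1 was lowest and vehicle replicate 6 highest, and every CBD3 and CBD30 value fell between those 2 hearts. The 7 vehicle hearts averaged 131 ± 40.5 CPM (SD), the 6 CBD3 hearts 144 ± 22.3 CPM and the 5 CBD30 hearts 141 ± 32.5 CPM.

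Igf1r, the receptor of both ligands, had 188 to 487 counts per heart. At the lowest of these, counting error alone gives a coefficient of variation of 7.29%, below the 15.9% to 36.5% seen within groups. In vehicle hearts the lowest, median and highest levels were 3.44, 4.48 and 7.06 CPM. In CBD3 hearts they were 3.48, 3.65 and 7.48 CPM. CBD30 replicates 1 to 5 had 4.60, 4.43, 3.99, 3.91 and 5.70 CPM. Most hearts lay close together, and CBD3 replicate 4 and vehicle 2.1 stood highest. The 7 vehicle hearts averaged 4.87 ± 1.26 CPM (SD), the 6 CBD3 hearts 4.31 ± 1.57 CPM and the 5 CBD30 hearts 4.53 ± 0.720 CPM.

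**Figure D1:**
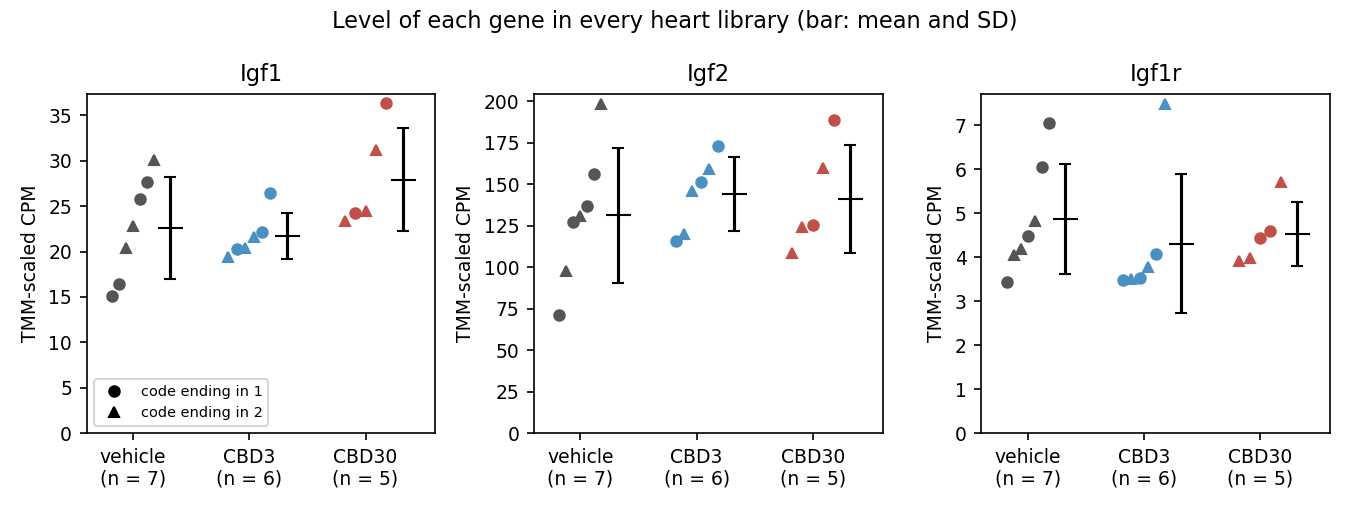
TMM-scaled CPM (vertical axes, from 0) of Igf1, Igf2 and Igf1r in each of the 18 heart libraries, by group; circles and triangles are codes ending in digit 1 and digit 2, and the black bars are the mean and SD. The groups overlap for all 3 genes, and 1 CBD3 heart stands at 7.48 CPM for Igf1r.

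CPM values are not scaled by transcript length, so the levels of the 3 genes were not ranked against each other. Over all 18 hearts the highest level was 2.40 times the lowest for Igf1, 2.78 times for Igf2 and 2.17 times for Igf1r. The SD of log2 CPM was 0.32, 0.36 and 0.34. Among 13527 genes averaging 1 CPM or more, 69.3% varied less than Igf1, 77.4% less than Igf2 and 74.7% less than Igf1r. In whole hearts, fewer cells of a type and less RNA per cell cannot be told apart.

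The comparison of CBD30 with vehicle asks whether exposure to the higher dose before birth changed the cardiac expression of these genes. Igf1 averaged 27.9 CPM in CBD30 and 22.6 CPM in vehicle hearts, a log2 difference of 0.31 ± 0.16 (SE) with a 95% interval of -0.03 to 0.64 (edgeR quasi-likelihood test, adjusted p = 0.339). All 5 CBD30 hearts were above the vehicle median. That interval runs from 0.98-fold to 1.56-fold. Igf2 differed by 0.11 ± 0.19 on the log2 scale (SE, edgeR adjusted p = 0.791), and its interval runs from 0.81-fold to 1.42-fold. Igf1r differed by -0.11 ± 0.20 (log2, SE, edgeR adjusted p = 0.805), from 0.69-fold to 1.25-fold. For both, 2 of 5 CBD30 hearts were above the vehicle median. The share of all genes with such counts was not computed. The Igf2 difference was 0.00075 without vehicle 2.1, 0.24 without vehicle replicate 6 and -0.019 without CBD30 replicate 1, so single hearts set its size.

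In this comparison 0 of the 3 genes were called with edgeR, beside 0 of 17009 tested genes (0%). At an unadjusted p under 0.05 the number was 0 of 3, beside 2794 genes (16.4%). CBD30 and vehicle hearts did not overlap for 0 of the 3 genes, beside 107 of the 17009 (0.629%). DESeq2 called 134 genes and limma with voom 0, with none of the 3 among them. The Igf1 difference was 0.15 ± 0.16 (log2, SE) without the 3 libraries farthest out on the first component, and 0.19 without CBD30 replicate 2 alone. Without those 3 libraries the Igf2 difference was 0.013 ± 0.19, and the Igf1r difference turned to 0.12 ± 0.21. Igf1r was at 0.0051 without vehicle 2.1 alone and at -0.20 without CBD30 replicate 5.

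For CBD3 against vehicle, Igf1 averaged 21.7 CPM in CBD3 and 22.6 CPM in vehicle hearts, a log2 difference of -0.06 ± 0.15 (SE, edgeR adjusted p = 0.886). Its 95% interval runs from 0.77-fold to 1.2-fold, and the difference was 0.025 without vehicle replicate 6. Igf2 averaged 144 CPM in CBD3 and 131 CPM in vehicle hearts, a log2 difference of 0.14 ± 0.18 (SE, edgeR adjusted p = 0.759), from 0.84-fold to 1.44-fold. It was 0.031 without vehicle 2.1 and 0.27 without vehicle replicate 6. Igf1r averaged 4.31 CPM in CBD3 and 4.87 CPM in vehicle hearts, a log2 difference of -0.18 ± 0.19 (SE, edgeR adjusted p = 0.702), from 0.67-fold to 1.17-fold. Igf1 was above the vehicle median in 1 of 6 CBD3 hearts, Igf2 in 4 of 6 and the receptor in 1 of 6, CBD3 replicate 4. The share of all genes with such counts was not computed. Without CBD3 replicate 4 the Igf1r difference was -0.41, and without vehicle 2.1 it was -0.067. Without the 3 libraries farthest out, the differences were -0.095 ± 0.15 for Igf1, 0.0029 ± 0.17 for Igf2 and 0.036 ± 0.19 for Igf1r. With edgeR 0 of the 3 genes were called, beside 0 of 17009 (0%). At an unadjusted p under 0.05 there were 0 of 3, beside 1518 genes (8.92%), and groups did not overlap for 0 of 3, beside 33 genes (0.194%). DESeq2 called 19 genes and limma with voom 0, again with none of the 3. Both doses were set against the same 7 vehicle hearts.

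Between the doses, Igf1 averaged 27.9 CPM in CBD30 and 21.7 CPM in CBD3 hearts, a log2 difference of 0.36 ± 0.16 (SE) with a 95% interval of 0.02 to 0.71. The unadjusted p was 0.0403 and the adjusted p 0.999 (edgeR quasi-likelihood test), so the difference did not pass. All 5 CBD30 hearts were above the CBD3 median, and the groups overlapped because CBD3 replicate 2, at 26.5 CPM, exceeded 3 of the CBD30 hearts. Igf2 averaged 141 CPM in CBD30 and 144 CPM in CBD3 hearts, a log2 difference of -0.03 ± 0.20 (SE, edgeR adjusted p = 0.999), from 0.73-fold to 1.31-fold. Igf1r averaged 4.53 CPM in CBD30 and 4.31 CPM in CBD3 hearts, a log2 difference of 0.07 ± 0.21 (SE, edgeR adjusted p = 0.999), from 0.77-fold to 1.43-fold. All 5 CBD30 hearts were above the CBD3 median for Igf1r as well, and 2 of 5 for Igf2. The share of all genes with such a count was not computed. With edgeR 0 of 3 genes were called, beside 0 of 17009 (0%). At an unadjusted p under 0.05 there was 1 of 3, Igf1, beside 294 genes (1.73%). Groups did not overlap for 0 of 3, beside 37 genes (0.218%). DESeq2 called 1 gene and limma with voom 0, none of them a member. The Igf1 difference was 0.25 ± 0.16 (log2, SE) without the 3 libraries farthest out, and 0.25 without CBD30 replicate 2. Igf2 was at 0.0097 ± 0.18 without those 3 libraries. Igf1r was at 0.30 without CBD3 replicate 4 and -0.023 without CBD30 replicate 5.

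**Figure D2:**
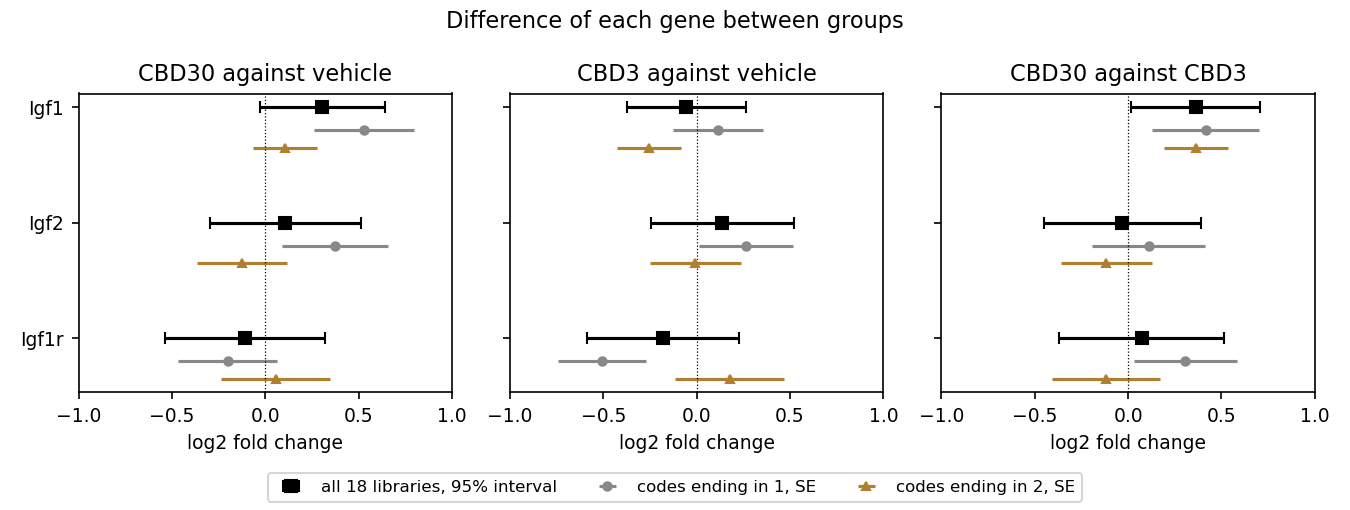
Log2 fold change (horizontal axes) of each gene in CBD30 against vehicle, CBD3 against vehicle and CBD30 against CBD3; squares are all 18 libraries with 95% intervals, circles and triangles are the libraries with codes ending in digit 1 or digit 2 with SE. The one interval of the squares that lies apart from 0 is Igf1 in CBD30 against CBD3, at 0.02 to 0.71.

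The differences were also measured within each last digit of the code, and 7 of the 9 pairs of gene and comparison differed in sign between the digits. The 2 that kept their sign were Igf1 in CBD30 against vehicle and against CBD3. For Igf1 in CBD30 against vehicle the log2 fold change was 0.53 ± 0.27 (SE) in digit 1 (2 CBD30 and 4 vehicle hearts) and 0.11 ± 0.17 in digit 2 (3 hearts each). For Igf1 in CBD30 against CBD3 it was 0.42 ± 0.29 in digit 1 and 0.36 ± 0.17 in digit 2. For Igf1 in CBD3 against vehicle it was 0.12 ± 0.24 in digit 1 and -0.26 ± 0.17 in digit 2. Igf1r in CBD3 against vehicle was at -0.51 ± 0.24 in digit 1 (3 CBD3 and 4 vehicle hearts) and 0.18 ± 0.29 in digit 2 (3 hearts each). For Igf1r the values were -0.20 ± 0.27 and 0.056 ± 0.29 in CBD30 against vehicle, and 0.31 ± 0.28 and -0.12 ± 0.29 in CBD30 against CBD3. Igf2 was at 0.37 ± 0.28 in digit 1 and -0.12 ± 0.24 in digit 2 for CBD30 against vehicle. Its values were 0.26 ± 0.25 and -0.0079 ± 0.24 for CBD3 against vehicle, and 0.11 ± 0.30 and -0.12 ± 0.24 for CBD30 against CBD3. Over the 3 genes and 3 comparisons, none of the 9 differences between the digits passed the interaction test, with adjusted p of at least 0.511 (edgeR) and a lowest unadjusted p of 0.0964 for Igf1r in CBD3 against vehicle.

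The balance of ligands and receptor was followed by the ratio of their counts within each heart, which does not depend on library scaling. The ratio of Igf2 to Igf1 counts averaged 5.98 ± 2.12 over the 7 vehicle hearts (SD), 6.74 ± 1.43 over the 6 CBD3 hearts and 5.28 ± 1.82 over the 5 CBD30 hearts. It ranged from 4.30 to 10.3 in vehicle, 5.23 to 8.53 in CBD3 and 3.45 to 7.78 in CBD30 hearts. The ratio of Igf2 to Igf1r averaged 29.5 ± 13.2 in vehicle, 35.9 ± 9.75 in CBD3 and 32.02 ± 9.07 in CBD30 hearts. The ratio of Igf1 to Igf1r averaged 5.00 ± 2.06 in vehicle, 5.47 ± 1.60 in CBD3 and 6.34 ± 1.76 in CBD30 hearts. All groups overlapped for each ratio, and no 2 group means differed by more than the largest SD of the 3 groups. The lowest ratios of Igf2 and of Igf1 to Igf1r were in vehicle 2.1, at 10.1 and 2.32.

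**Figure D3:**
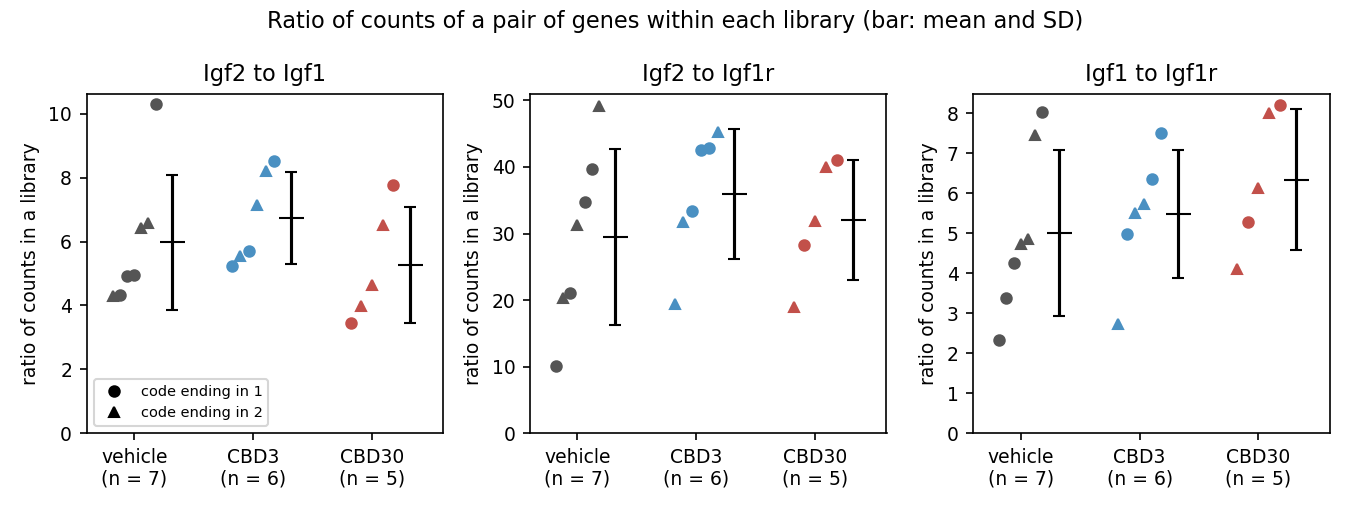
Ratio of the counts of a pair of genes in each library (vertical axes, from 0) by group; circles and triangles are codes ending in digit 1 and digit 2, and black bars are the mean and SD. Vehicle 4.1 stands at 10.3 for Igf2 to Igf1, and all groups overlap in each panel.

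No pair of the 3 genes showed a correlation past the threshold over the 18 hearts. Pearson's r of log2 CPM was 0.21 for Igf1 with Igf2 (Spearman's rho 0.05, permutation p = 0.415 and 0.836), -0.29 for Igf1 with Igf1r (rho -0.25, permutation p = 0.239 and 0.310) and -0.42 for Igf2 with Igf1r (rho -0.21, permutation p = 0.0821 and 0.399). Adjusted over the 6 relations computed, p was 0.415, 0.287 and 0.164 for r and 0.836, 0.584 and 0.584 for rho. Without the 2 hearts farthest from the median on the first-named gene, r was 0.43, -0.39 and -0.14. Without vehicle 2.1 alone it was -0.073, -0.13 and -0.16, and without the 3 libraries farthest out it was 0.027, -0.25 and -0.12. Without CBD3 replicate 4, r of Igf2 with Igf1r was -0.56 (permutation p = 0.0218, adjusted 0.0436 over the 6 relations). The planned adjustment covered the 3 pairs alone and was not computed. The other 3 relations were not planned, and 0.0436 depends on their p-values too, so it is not read as a call. With scaling by library size alone the 3 values were 0.27, -0.12 and -0.13. Within digit 1 the 3 values were 0.21, -0.34 and -0.56, and within digit 2 they were 0.21, -0.23 and -0.25 (n = 9 each, exact permutation p of at least 0.125).

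The other 3 relations were not planned and set each gene against the score on the first component. That score was computed from all tested genes, including these 3. It came from the TMM-scaled levels of all 18 libraries and was not recomputed in any alternative. The component held 29.8% of the variance, so many genes can correlate with it. The permutation p tests r against 0 and does not compare a gene with other genes. The share of all genes with an r as large was not counted, so these values do not set the 3 genes apart. Igf1 had r = 0.56 (permutation p = 0.0157, adjusted 0.0472) and rho = 0.44 (permutation p = 0.0653, adjusted 0.196). Without vehicle 2.1 and vehicle 1.1 its r was 0.63, and without CBD30 replicate 2 it was 0.40. Igf1r had r = -0.58 (permutation p = 0.0124, adjusted 0.0472) and rho = -0.51 (permutation p = 0.0348, adjusted 0.196). Without vehicle 2.1 and vehicle 1.1 its r was -0.27 (permutation p = 0.302). It was -0.43 without vehicle 2.1 alone and -0.51 without vehicle 1.1 alone. Leaving out the lowest scores also narrows their range, so these values do not show what the relation rests on. Neither call held without the 3 libraries farthest out (r = 0.43 and -0.42, adjusted permutation p = 0.365 for both), and each held in 5 of 18 fits without 1 library. With scaling by library size alone r was 0.31 for Igf1 (adjusted permutation p = 0.561) and -0.71 for Igf1r (adjusted permutation p = 0.00654). With levels and scores centred on group means the adjusted permutation p was 0.0588 for both. Igf2 had r = 0.35 and rho = 0.17 (permutation p = 0.149 and 0.487, adjusted 0.224 and 0.584), and its r was -0.06 without vehicle 2.1 and vehicle 1.1 and 0.058 without the 3 libraries farthest out. Within digit 1, which holds all 3 outlying hearts, r was 0.71 for Igf1, 0.43 for Igf2 and -0.78 for Igf1r (n = 9, exact permutation p = 0.0330, 0.253 and 0.0135). Within digit 2 it was -0.11, 0.16 and -0.19 (n = 9, exact permutation p of at least 0.643). Scores spanned a far narrower range there than in digit 1, so these values cannot decide whether the relations hold in digit 2.

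**Figure D4:**
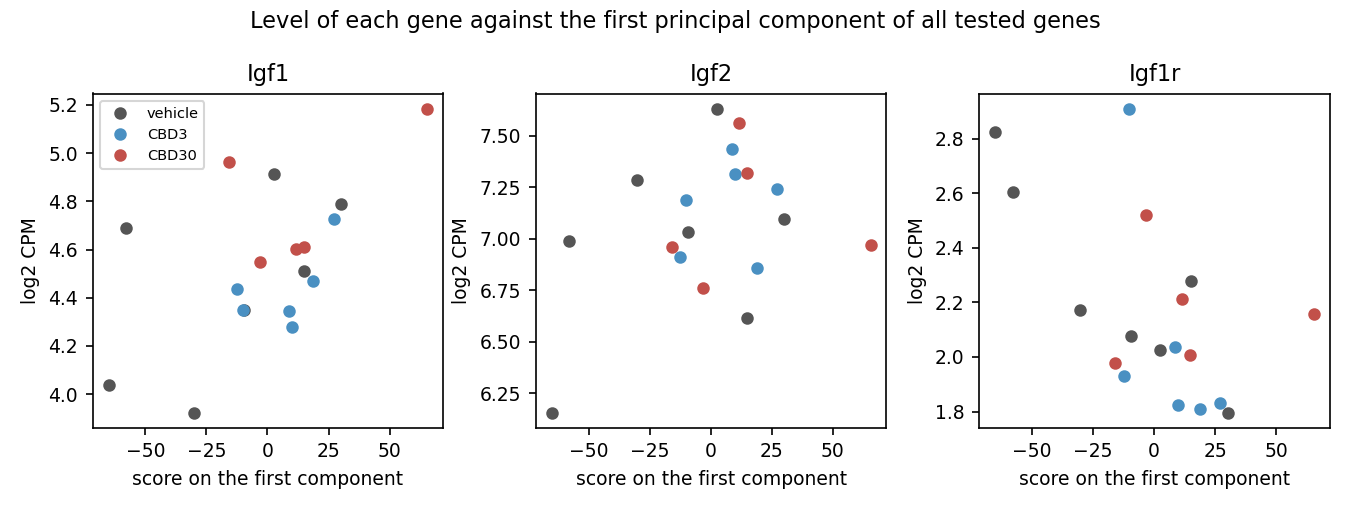
Log2 CPM of each gene (vertical axes) against the score of the library on the first principal component of all tested genes (horizontal axes); each point is 1 of 18 hearts, coloured by group. The hearts at -65.0 and -57.9 are vehicle hearts and have the 2 highest Igf1r levels of that group, and the heart at 65.5 is a CBD30 heart with the highest Igf1 level.

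Among the other 13524 genes averaging 1 CPM or more, the gene most like each member was taken by Pearson's r of log2 CPM over the 18 hearts, as a description. For Igf1 it was ENSRNOG00000012681, at 22.8 to 56.2 CPM and r = 0.90. For Igf2 it was ENSRNOG00000028108, at 3.56 to 13.9 CPM and r = 0.88. For Igf1r it was ENSRNOG00000067362, at 1.02 to 3.06 CPM and r = 0.88. Each is the highest of many correlations. After centring on group means r was 0.91, 0.89 and 0.89. It was 0.96, 0.92 and 0.91 within digit 1 and 0.76, 0.82 and 0.85 within digit 2, so these likenesses were seen in both sets of hearts on which they were chosen. An r of at least 0.8 was reached by 9 genes for Igf1, 9 for Igf2 and 6 for Igf1r. An r of -0.8 or lower was reached by 0, 3 and 4 genes.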

How the data were processed

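Gene expression was measured by bulk RNA sequencing of messenger RNA from 18 hearts, with a stranded library kit per the labels' protocols. The deposited file holds raw counts by Ensembl identifier, 1 column for each library. Per the submitters' processing notes, the authors worked on build mRatBN7.2 with featureCounts and edgeR. The sources used here do not state the aligner, annotation release, strand setting or any adjustment before deposit.

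Of 30560 genes, 17009 passed filterByExpr (minimum count 10, minimum total 15), including all 3 genes described. All 18 libraries were fitted together by group with TMM scaling and the quasi-likelihood test of edgeR (version 4.0.16, R version 4.3.3), with Benjamini-Hochberg adjustment over all tested genes. SEs were taken from the F statistic, and 95% intervals are given. Log2 CPM used a prior count of 2. Correlations used two-sided permutation tests (100000 permutations, or all orders for 9 hearts). The steps were tested on simulated data. Libraries of a group differed by more than sampling noise in all 46 pairs (chi-square per degree of freedom at least 34.4).

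Members, lists and alternatives were chosen with earlier results of these data known. The text names the members and the 1 most correlated gene of each. Lists of pathway genes and cell markers were fixed by symbol, and 0 of 30560 identifiers could be paired with a symbol, so no list was counted. Alternatives were other scaling, other low-count filters, other sets of libraries, a digit covariate, a replicate block, DESeq2 1.42.0 and limma 3.58.1.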

Additional observations from a re-analysis of the deposited data

Results flagged for a closer look

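In 18 sets of 5 to 7 libraries (each gene and each ratio in each group), 2 held a library far from the others, where chance gives about 1 in 20. Igf1r was at 7.48 CPM in CBD3 replicate 4, and the nearest other CBD3 heart was at 4.07 CPM. The ratio of Igf2 to Igf1 counts was 10.3 in vehicle 4.1, and the nearest other vehicle heart was at 6.59. What set these hearts apart was not tested.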

How the results depend on the processing

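The 9 differences of the 3 genes were recomputed under 31 alternatives, 18 of which left out 1 library. None of the 279 values passed an adjusted p of 0.05 (lowest 0.194), 256 kept their direction and 23 turned. Leaving out a library of the third group hardly moves a difference, so 256 overstates stability. Values are log2 differences. No cause of a turn was tested. With digit 1 alone, Igf1 turned to 0.12 (CBD3 against vehicle) and Igf2 to 0.11 (CBD30 against CBD3). With digit 2 alone, Igf2 turned to -0.12 and -0.0079 and Igf1r to 0.056 and 0.18 (CBD30 and CBD3 against vehicle). There Igf1r also turned to -0.12 (CBD30 against CBD3). Without the 3 libraries farthest out on the first component, Igf1r turned to 0.12 and 0.036 (CBD30 and CBD3 against vehicle) and Igf2 to 0.0097 (CBD30 against CBD3).

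The replicate block was fitted over the 14 libraries that carry a number. Their vehicle hearts are replicates 5, 6 and 7, all with codes ending in digit 2, while both CBD groups hold both digits. Group and digit are therefore partly confounded in fits of these libraries. With the block, Igf1 was at -0.030 (CBD30 against vehicle) and -0.37 (CBD3 against vehicle, edgeR unadjusted p = 0.0452, adjusted 0.429). For CBD30 against CBD3 it was at 0.34 (edgeR unadjusted p = 0.00896, not called after adjustment). Igf2 was at -0.0053 (CBD3 against vehicle) and 0.013 (CBD30 against CBD3). The same libraries without the block, an alternative added after seeing the data, gave 0.20 for Igf1, -0.0018 for Igf2 and 0.067 for Igf1r (CBD30 against vehicle), and -0.16 for Igf1 and -0.0071 for Igf1r (CBD3 against vehicle). CBD30 and CBD3 share 5 replicate numbers, CBD3 and vehicle 2, and CBD30 and vehicle 1. The deviations of same-numbered CBD30 and CBD3 libraries correlated at -0.08 to 0.31, and 2 of 5 CBD30 libraries correlated best with their own number, so the numbers were not treated as pairs.

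Leaving out 1 library gave -0.13 to 0.025 for Igf1, 0.031 to 0.27 for Igf2 and -0.41 to -0.067 for Igf1r in CBD3 against vehicle. It gave 0.19 to 0.39 for Igf1, -0.019 to 0.24 for Igf2 and -0.20 to 0.0051 for Igf1r in CBD30 against vehicle, and 0.25 to 0.43 for Igf1, -0.16 to 0.051 for Igf2 and -0.023 to 0.30 for Igf1r in CBD30 against CBD3. For Igf1 against Igf2, r ranged from -0.073 to 0.32, and -0.073 was without vehicle 2.1. In digit 2, r of Igf1 with the first component was -0.11.

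Genes called over the whole table were 0 to 267 for CBD30 against vehicle when 1 library was left out, with 267 without vehicle 3.1. DESeq2 called 134, 19 and 1 for CBD30 against vehicle, CBD3 against vehicle and CBD30 against CBD3, and edgeR with only the groups compared called 1 for CBD30 against CBD3. Genes at an unadjusted p under 0.05 ranged over all alternatives from 798 to 4265, 586 to 2823 and 177 to 632. Depth limits precision most for Igf1r, with the fewest counts.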
